A study of Arabidopsis thaliana with 36 samples.

Results

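The genes described here are 10 loci of the CBF cold-response pathway of *Arabidopsis thaliana*, taken by name from the 37336 genes in the table of transcript amounts. They are the transcription factor genes *CBF1* (AT4G25490), *CBF2* (AT4G25470), *CBF3* (AT4G25480) and *DREB2A* (AT5G05410), and the target genes *COR15A* (AT2G42540), *COR15B* (AT2G42530), *KIN1* (AT5G15960), *COR47* (AT1G20440), *RD29A* (AT5G52310) and *GOLS3* (AT1G09350). They were picked by locus, and all 10 were in the table and passed the filter on low values. RNA-Seq was run on leaves of the wild-type ecotypes Wassilewskija (WS) and Columbia-0 (Col-0) at 5 times in high light (15, 30, 60, 120 or 240 min) and at 0 min, high light being a photon flux density (PFD, in μmol of photons per m2 and second) of 500 in plants grown at 120. Each of the 12 groups of ecotype and time had 3 libraries, made from hydroponically grown plants in a gas exchange chamber at constant air temperature. The study's methods have 1 leaf removed from every plant at every time, so the replicate number is read as the plant. None of the RNA-Seq libraries analysed here came from chilled plants or from leaves kept at the lower light after 0 min, so the light, the time of day, the chamber and the removal of earlier leaves cannot be told apart.

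CBF1, CBF2 and CBF3 (also called DREB1B, DREB1C and DREB1A) are AP2/ERF-type transcription factors that bind the C-repeat/dehydration-responsive element (CRT/DRE), a short DNA motif with the core CCGAC. They are best known for their fast and transient induction by cold, for gating by the circadian clock, and for switching on the cold-regulated (*COR*) genes that raise freezing tolerance. DREB2A binds the same kind of element, is known from drought and heat, and is also controlled at the level of its protein. COR15A and COR15B are small hydrophilic proteins of the chloroplast stroma that protect membranes, KIN1 is a small hydrophilic protein, COR47 is a dehydrin, RD29A is the hydrophilic protein whose promoter served to define the element, and GOLS3 is a galactinol synthase, the enzyme that opens the synthesis of raffinose-family sugars.

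The *CBF* genes lie in a row on the minus strand of chromosome 4 in TAIR10.1, *CBF1* at chr4:13021780-13022996, *CBF3* at chr4:13018010-13019400 and *CBF2* at chr4:13015250-13016235. *COR15A* (chr2:17710441-17712330) and *COR15B* (chr2:17708593-17710433) are neighbours on the minus strand with 7 bases between them. *KIN1* (chr5:5209717-5210826, plus strand) stands 892 bases from *KIN2*, *COR47* (chr1:7084409-7086873, minus strand) 1029 bases from *ERD10*, and *RD29A* (chr5:21240717-21243644, plus strand) 1185 bases from *RD29B*. *DREB2A* is at chr5:1602205-1604112 and *GOLS3* at chr1:3019639-3021443, both on the plus strand. Near-identical copies can split or lose reads, and of all 50-base windows in their exons 2.48% in *CBF1*, 3.95% in *CBF2*, 0.60% in *CBF3* and 0.15% in *KIN1* occur elsewhere in the genome, against 0% in the other 6 genes. The exons of *COR15B* share 468 bases with AT2G42520 on the opposite strand, which had 5.50 to 28.7 RPKM, and the strand setting of the read counting is not given in the sources used here, so *COR15B* values are less certain where they are low. *DREB2A* shares 73 bases with AT5G05420 (at most 1.73 RPKM), and *CBF3* shares 29 with AT4G07385 (at most 0.33 RPKM).

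The start regions were searched for the motif through which the factors act. The windows run from 250 bases before to 50 bases after the RefSeq gene start (TAIR10.1), all 10 genes had one, and both strands were searched, so a motif on the other strand reads GTCGG. The core CCGAC occurred in 3 of the 6 target genes, with 4 matches in *RD29A* (chr5:21240467-21240766, plus strand), 2 in *COR15A* (chr2:17712281-17712580, minus strand) and 2 in *GOLS3* (chr1:3019389-3019688, plus strand). None of the 4 factor genes had one, and 15.1% of 27443 windows of protein-coding genes had at least 1, 2.09% at least 2. Of 20 further cold-regulated and DREB target genes 8 had one. Sites outside the windows were not searched, and the *COR15B* window lies largely within the annotated *COR15A* gene, so a window without a match does not mean a gene without the motif. Capitals mark each match in the sequences of these 3 genes.
RD29A: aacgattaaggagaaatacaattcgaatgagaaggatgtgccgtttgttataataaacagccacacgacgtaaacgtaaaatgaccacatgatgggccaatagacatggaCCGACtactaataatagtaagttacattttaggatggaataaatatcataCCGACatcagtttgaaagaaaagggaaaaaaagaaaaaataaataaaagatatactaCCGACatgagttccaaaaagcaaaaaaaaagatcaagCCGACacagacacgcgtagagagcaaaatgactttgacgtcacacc
COR15A: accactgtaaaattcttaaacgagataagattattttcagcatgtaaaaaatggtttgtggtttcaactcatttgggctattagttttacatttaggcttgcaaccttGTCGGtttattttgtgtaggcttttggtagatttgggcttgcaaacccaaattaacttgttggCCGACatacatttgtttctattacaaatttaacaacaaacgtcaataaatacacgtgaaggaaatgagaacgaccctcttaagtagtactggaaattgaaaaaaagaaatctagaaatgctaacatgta
GOLS3: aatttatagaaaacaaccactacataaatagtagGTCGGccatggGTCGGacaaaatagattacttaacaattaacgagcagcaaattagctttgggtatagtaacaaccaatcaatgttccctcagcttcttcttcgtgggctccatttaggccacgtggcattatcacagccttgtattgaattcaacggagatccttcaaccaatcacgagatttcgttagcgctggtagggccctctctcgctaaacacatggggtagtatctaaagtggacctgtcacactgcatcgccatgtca

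All 4 factor windows held the string AAATATCT (AGATATTT on the other strand), as did that of *KIN1*. It is a shortened form of the evening element, a motif known from genes that the clock drives late in the day. The full element has a further A before this string, which was not part of the search. That A is present in *DREB2A* and absent in *KIN1*, *CBF1*, *CBF2* and *CBF3*. Of all windows 5.65% held the shortened string, and it was absent from the other 5 target windows. The *CBF* windows are printed because all of them hold the shortened string. Capitals mark it in *CBF1* (chr4:13022947-13023246), *CBF2* (chr4:13016186-13016485) and *CBF3* (chr4:13019351-13019650), each read on the minus strand. A match is a string of letters and no measure of binding.
CBF1: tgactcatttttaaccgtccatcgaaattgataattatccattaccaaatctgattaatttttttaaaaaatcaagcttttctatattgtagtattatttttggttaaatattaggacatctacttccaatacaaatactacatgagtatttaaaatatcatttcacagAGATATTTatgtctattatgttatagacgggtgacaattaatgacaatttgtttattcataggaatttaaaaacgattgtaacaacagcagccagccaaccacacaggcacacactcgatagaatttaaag
CBF2: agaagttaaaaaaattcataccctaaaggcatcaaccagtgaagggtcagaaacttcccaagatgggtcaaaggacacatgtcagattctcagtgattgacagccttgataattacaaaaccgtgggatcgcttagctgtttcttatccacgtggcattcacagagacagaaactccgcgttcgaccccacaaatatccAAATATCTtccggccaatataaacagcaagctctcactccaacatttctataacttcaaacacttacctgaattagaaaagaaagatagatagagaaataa
CBF3: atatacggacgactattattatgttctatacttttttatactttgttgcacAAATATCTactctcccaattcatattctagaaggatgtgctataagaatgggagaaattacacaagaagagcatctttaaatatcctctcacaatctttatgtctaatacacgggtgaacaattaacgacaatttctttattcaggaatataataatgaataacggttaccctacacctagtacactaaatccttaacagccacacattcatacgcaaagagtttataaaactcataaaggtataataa

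Transcript amounts are in RPKM, reads per kilobase of exon scaled to the library's reads, and log2 differences are of log2(RPKM + 1), which understates the change of low genes. A gene is said to have risen or fallen where limma's moderated test over 13817 genes gave an adjusted p under 0.05, with Benjamini-Hochberg adjustment within each comparison. Reads were recovered from the RPKM values and are estimates, at 7.35 to 41.6 M (mega) reads in genes, with a median of 28.6 M. By the read totals fitted for the libraries, 1 read in a 1-kb transcript was worth 0.0187 to 0.132 RPKM. In some libraries the recovered reads in genes exceeded the fitted total, as in Col-0 60 min replicate 3 (36.5 M against 30.2 M), so recovered reads are approximate. Of the 36 libraries, 27 were most like the mean of their own group and 9 most like another time of their ecotype. Among these 9, WS 120 min replicate 3, Col-0 60 min replicate 1 and Col-0 120 min replicate 1 were the farthest from their own group, and WS 0 min replicate 1 was the shallowest library, so a fit without these 4, chosen after the data were seen, is given where it changes a call. The other 6 were kept in that fit, among them WS 30 min replicate 2 and Col-0 30 min replicate 2, both most like 15 min, and each was left out singly. The leaf genes *RBCS1A* (4731 to 24218 RPKM) and *LHCB1.3* (1678 to 13088 RPKM) were high in every library, as was *RCA* (rubisco activase, 1266 to 9803 RPKM), while the root genes *LRX1* and *EXPA7* did not pass 0.24 RPKM and the flower genes *AP1* and *AG* did not pass 1.18 RPKM. In whole leaves, fewer cells that make a transcript and less transcript per cell cannot be told apart. WS reads were aligned to the Col-0 reference, so WS alleles that differ can lose reads.

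*CBF1* and *CBF2* rose within 15 min in both ecotypes, as the only members called in WS at that time, while Col-0 also had *COR47*. At that time 2.64% of all tested genes were higher in WS and 2.85% in Col-0, against 2 and 3 of the 10 genes here. *CBF1* had 12.3, 3.48 and 2.67 RPKM in WS at 15 min, against 0.00, 0.00 and 0.20 RPKM at 0 min. In Col-0 it had 3.05, 19.3 and 4.20 RPKM at 15 min, against 0.03, 0.04 and 0.00 RPKM at 0 min. Every 15-min library lay far above every 0-min library, which held almost no *CBF1* reads. The log2 difference was 2.50 ± 0.43 in WS (SE, adjusted p = 0.00078) and 2.88 ± 0.43 in Col-0 (adjusted p = 0.00019, limma). As recovered reads, the 3 WS libraries held 484 at 15 min against 8 at 0 min, a depth-scaled ratio of 50.1 with an exact 95% interval of 25.2 to 117. In Col-0 the 1078 reads at 15 min stood against 2 at 0 min, so the ratio of 417 is loosely bounded, from 115 to 3447, and both intervals cover counting error only.

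*CBF2* had the highest RPKM of the *CBF* genes at 15 min in every library, and RPKM is already per length. It reached 38.9, 21.4 and 7.62 RPKM in WS at 15 min, against 0.80, 0.03 and 1.45 RPKM at 0 min. In Col-0 it reached 10.4, 64.2 and 8.49 RPKM, against 0.18, 0.72 and 0.40 RPKM at 0 min. The groups did not overlap, although the highest 15-min library of each ecotype was several times the lowest. The log2 difference was 3.58 ± 0.63 in WS (adjusted p = 0.00099) and 3.76 ± 0.63 in Col-0 (adjusted p = 0.00061, limma), and the ratio of summed reads was 23.3 (17.8 to 31.1) in WS and 69.2 (48.7 to 102) in Col-0. Both genes entered the test through this time alone, *CBF1* by 2 readings above 7 RPKM and *CBF2* by 6, so passing the filter took a high 15-min value, and with no filter the adjusted p was 0.0018 in WS and 0.00047 in Col-0 for *CBF1*, and 0.0047 in WS and 0.0027 in Col-0 for *CBF2*. Without the 4 libraries named above *COR15A* was also called in WS (adjusted p = 0.033), making 3 members. The WS calls were lost for *CBF1* without WS replicate 1 and for *CBF2* without WS replicate 2, leaving 1 gene called at 15 min in either case, and voom on recovered reads gave adjusted p = 0.11 for *CBF2* in WS and 0.059 in Col-0.

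The rise was brief. At 30 min *CBF1* had 1.33, 0.67 and 0.26 RPKM in WS, and 0.64, 0.71 and 0.23 RPKM in Col-0. By 60 min both genes overlapped their 0-min values in both ecotypes, with at most 0.15 RPKM for *CBF1* and 1.53 RPKM for *CBF2*. From 15 to 30 min the log2 difference of *CBF1* was -1.83 in WS (adjusted p = 0.10) and -2.32 in Col-0 (adjusted p = 0.052), and that of *CBF2* was -2.68 in WS (adjusted p = 0.099) and -2.71 in Col-0 (adjusted p = 0.15). With the plant as a replicate block these became adjusted p = 0.042 for *CBF2* in WS, and 0.03 for *CBF1* and 0.042 for *CBF2* in Col-0, and without the 4 libraries named above the Col-0 values were 0.02 and 0.045. Without the block limma called none of the 10 genes lower at 30 than at 15 min, with 3 at an unadjusted p under 0.05 in each ecotype, and voom also called 0; of all genes, 0.0868% were lower in WS and 0.0145% in Col-0. In the order of mean levels, 15 min stood alone at the top for both genes in both ecotypes with no overlap with the next time, and every lower pair of neighbours overlapped. The highest of the 6 time points was 15 min in 6 of 6 plants for *CBF1* and for *CBF2*.

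**Figure D1:**
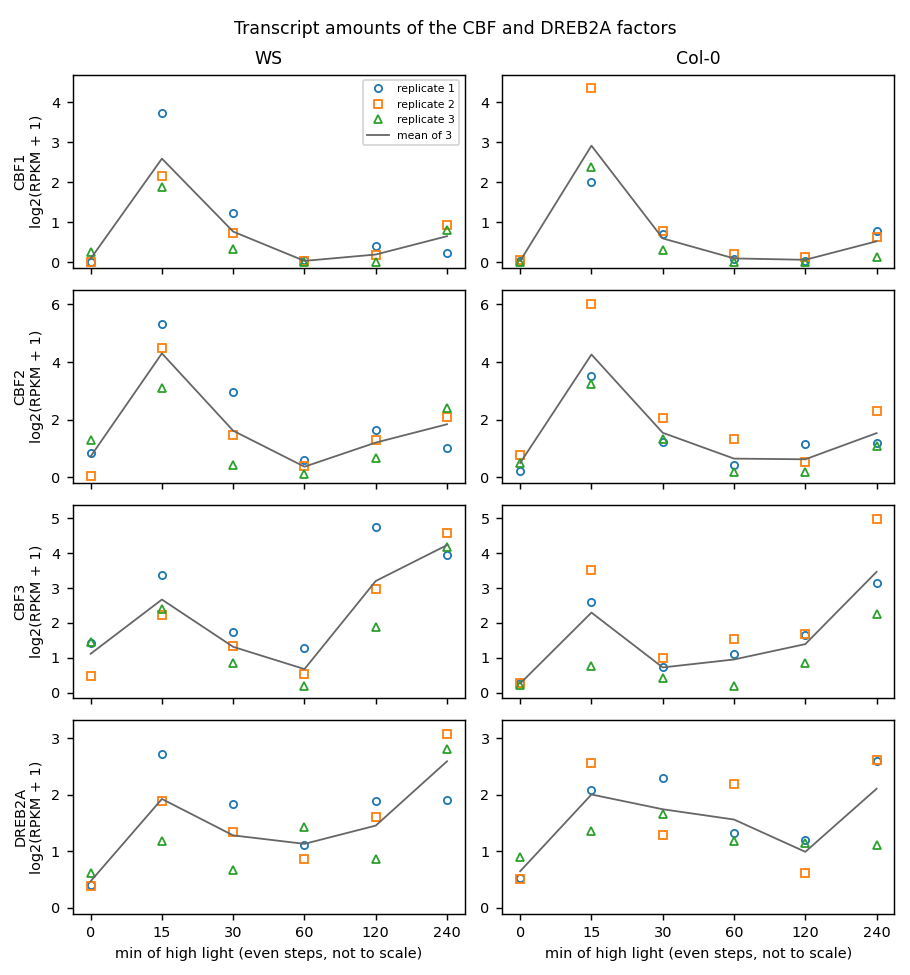
Transcript amounts of the 4 factor genes as log2(RPKM + 1) against time in high light (min, even steps), with a row of panels for each gene, WS on the left and Col-0 on the right, a marker for each replicate and lines through the means of 3 libraries. *CBF1* and *CBF2* peak at 15 min in all 6 plants, while *CBF3* and *DREB2A* have high points both at 15 min and at 240 min.

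The size of the 15-min rise differed several-fold between plants, and the same plants were highest across the factor genes. WS replicate 1 and Col-0 replicate 2 were the highest libraries of their ecotype for *CBF1*, *CBF2*, *CBF3* and *DREB2A*. The same libraries were highest for *DDF1*, a DREB1-type factor of the same clade, at 18.7, 4.26 and 2.16 RPKM in WS and 1.72, 30.4 and 2.46 RPKM in Col-0 (replicates 1 to 3). They were also highest for *ZAT12*, a zinc-finger gene of the light, oxidative and cold stress responses, at 42.9, 9.34 and 7.33 RPKM in WS and 9.0, 22.7 and 9.64 RPKM in Col-0. The touch gene *TCH4*, a xyloglucan endotransglucosylase that answers handling, had 69.4, 14.5 and 19.2 RPKM in WS and 26.9, 127 and 26.0 RPKM in Col-0, again highest in these libraries. The 3 touch genes *TCH2*, *TCH3* and *TCH4* were all called higher at 15 min in both ecotypes, with log2 differences of 3.51, 3.93 and 3.65 in WS and of 2.28, 2.79 and 3.93 in Col-0. At 0 min *TCH2* (log2 difference -1.71, adjusted p = 0.00098) and *TCH3* (-2.35, adjusted p = 0.0083, limma) were lower in WS than in Col-0, and none of the 3 responses at 15 min was called different between the ecotypes. *TCH2*, a calmodulin-like gene, had 127, 71.0 and 51.9 RPKM in WS and 99.6, 118 and 108 RPKM in Col-0 at 15 min, and the calmodulin-like *TCH3* had 81.1, 58.7 and 38.5 RPKM in WS and 125, 178 and 105 RPKM in Col-0. The same libraries were highest for both, but by less than for *TCH4*, and *TCH2* hardly differed between the Col-0 plants (108.5 ± 9.34 RPKM, SD, n = 3). The target genes did not all follow these plants at 15 min. Col-0 replicate 2 was the highest Col-0 library for none of them, with *RD29A* for instance at 61.2, 35.2 and 71.1 RPKM. WS replicate 1 was the highest WS library for every target gene except *RD29A*, which had 68.3, 88.3 and 27.7 RPKM. The part of the touch genes in the 15-min rise of the factors was not tested.

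**Figure D2:**
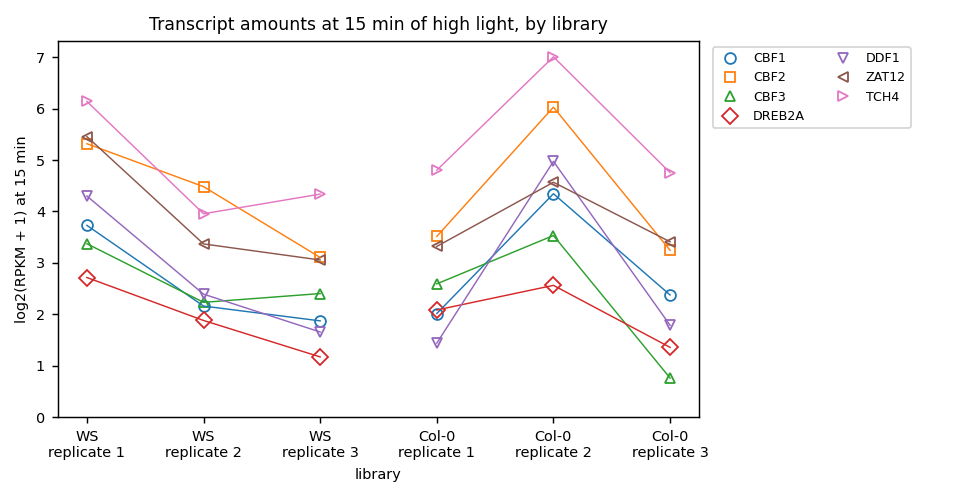
Transcript amounts at 15 min as log2(RPKM + 1), 1 column for each of the 6 libraries, for the 4 factor genes and for *DDF1*, *ZAT12* and *TCH4*, with lines joining the libraries of an ecotype. WS replicate 1 and Col-0 replicate 2 are the highest library of their ecotype for each of the 7 genes.

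*CBF3* followed another course, with its highest values late. In WS it had 14.3, 23.1 and 17.1 RPKM at 240 min, against 1.71, 0.38 and 1.72 RPKM at 0 min. In Col-0 it had 7.91, 30.7 and 3.79 RPKM at 240 min, against 0.21, 0.22 and 0.17 RPKM at 0 min. The 240-min libraries lay above all 0-min libraries in both ecotypes, and the log2 difference was 3.12 ± 0.64 in WS (adjusted p = 6e-04) and 3.2 ± 0.64 in Col-0 (adjusted p = 0.00043, limma), a call kept in 9 of 9 fits without a library or plant in each ecotype. *CBF3* and *DREB2A* were among the 6 members called higher at 240 min in each ecotype, where 14.5% of all tested genes were higher in WS and 17% in Col-0. Of the genes called in either direction at 240 min, 2004 of 3401 were higher in WS and 2349 of 4156 in Col-0, and 3284 of 4149 and 3155 of 4396 when libraries were scaled to the same sum. Cell type markers also moved, most of them late. The guard cell gene *MYB60* moved earlier, being lower in WS at 30 min (log2 difference -0.96, adjusted p = 0.038) and in Col-0 at 60 min (-0.94, adjusted p = 0.027, limma). *RCA* fell to 2251 ± 854 RPKM in WS at 240 min, against 7960 ± 1025 RPKM at 0 min (log2 difference -1.89, adjusted p = 8.3e-06), and to 2478 ± 1057 RPKM in Col-0, against 9056 ± 539.6 RPKM (-1.98, adjusted p = 5.1e-06; SD, n = 3). Of the 3 mesophyll genes 3 were lower in WS at 120 and at 240 min, and 1 and 2 in Col-0. At these times 17.3% and 10.1% of all tested genes were lower in WS, and 15.7% and 13.1% in Col-0. Among 3 phloem genes *SEOR1* was lower in WS at 120 min (log2 difference -1.02) and in Col-0 at 240 min (-1.31), as was *APL* in Col-0 at 240 min (-0.64), and among 3 guard cell genes *KAT1* was higher in WS at 240 min (1.67), *MYB60* lower in WS at 240 min (-0.85) and *FAMA* higher in Col-0 at 120 min (0.67). The study reported falling transcripts for every Calvin-Benson cycle enzyme in high light, and it listed *RCA* and *RBCS1A* with that cycle. Whether the fall of the mesophyll genes reflects fewer such cells was not tested. The part of the marker shifts in the late values of the members was not tested either.

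In WS *CBF3* was already called at 120 min, at 25.8, 6.90 and 2.70 RPKM, with a log2 difference of 2.09 ± 0.64 (adjusted p = 0.011), but the call was lost in 4 of 9 such fits, with a lowest difference of 1.32, and by voom (adjusted p = 0.065). The step to 120 min from 60 min, when WS had 1.45, 0.45 and 0.15 RPKM, was 2.53 (adjusted p = 0.006), lost in 3 of 9 fits, between times where 10.6% of all tested genes were higher. In Col-0 the step came later, with 2.13, 2.20 and 0.81 RPKM at 120 min and a difference of 2.07 at 240 min over 120 min (adjusted p = 0.034), where 6.64% of all tested genes were higher, and this call was lost in 7 of 9 fits, with a pseudocount of 0.1 (adjusted p = 0.062), with no filter (0.079) and by voom (0.059).

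At 15 min *CBF3* had 9.37, 3.71 and 4.30 RPKM in WS and 5.04, 10.6 and 0.70 RPKM in Col-0, all above the 0-min libraries of the same ecotype. The log2 difference from 0 min was 1.56 in WS (adjusted p = 0.34) and 2.04 in Col-0 (adjusted p = 0.093), so neither passed the test, and with the replicate block Col-0 gave adjusted p = 0.014. The highest time of *CBF3* was 240 min in 5 plants and 120 min in 1.

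The make-up of the *CBF* transcripts differed between the early and the late peak. Of the summed RPKM of *CBF1*, *CBF2* and *CBF3*, *CBF3* made up 77.1% to 92.3% in WS and 75.5% to 87.1% in Col-0 at 240 min, against 13.0% to 29.5% in WS and 5.23% to 27.2% in Col-0 at 15 min. Its share was higher at 240 min in 6 of 6 plants, with means of 82.7% ± 6.45 at 240 min and 16.9% ± 9.48 at 15 min (SD, n = 6 libraries each). At 15 min the largest share was that of *CBF2*, 63.8% ± 11.3 in WS and 62.7% ± 5.98 in Col-0 (SD, n = 3 each). The summed amount was 15.5 to 27.3 RPKM in WS and 5.02 to 35.2 RPKM in Col-0 at 240 min, against 14.6 to 60.5 RPKM in WS and 13.4 to 94.1 RPKM in Col-0 at 15 min. At 60 min it was 0.23 to 2.01 RPKM in WS and 0.27 to 3.61 RPKM in Col-0, so shares at 0 and 60 min rest on few reads. These shares are a description of a pattern seen in the data and carry no test.

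**Figure D3:**
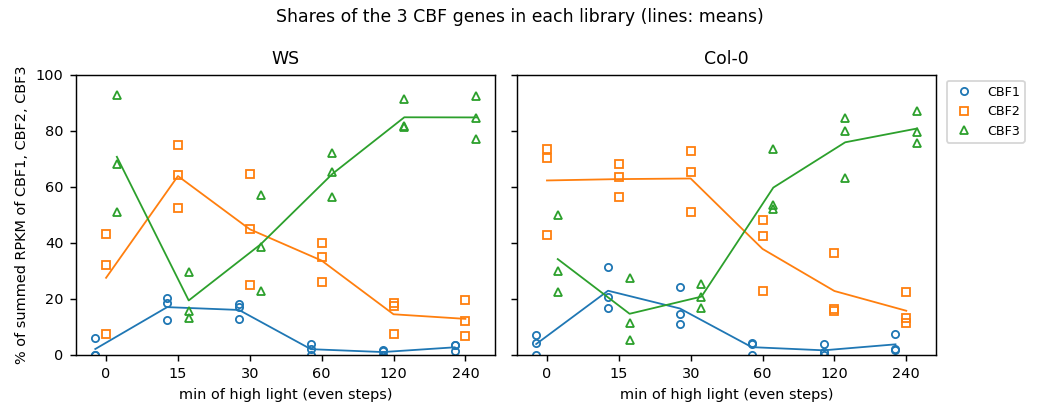
Share of *CBF1*, *CBF2* and *CBF3* in their summed RPKM (%) against time in high light (min, even steps), 1 panel an ecotype, with 1 point for each library and lines through the means of 3 libraries. *CBF2* is the largest share at 15 min and *CBF3* the largest at 240 min in all 6 plants.

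*DREB2A* was low throughout, at 0.31 to 7.41 RPKM. In WS it had 2.74, 7.41 and 5.97 RPKM at 240 min, against 0.32, 0.31 and 0.54 RPKM at 0 min. In Col-0 it had 5.04, 5.09 and 1.17 RPKM at 240 min, against 0.44, 0.43 and 0.87 RPKM at 0 min. No 240-min library overlapped the 0-min libraries of its ecotype, but Col-0 replicate 3 came close. The log2 difference was 2.12 ± 0.43 in WS (adjusted p = 0.00058) and 1.46 ± 0.43 in Col-0 (adjusted p = 0.012, limma), the Col-0 call being lost in 4 of 9 fits, with a lowest difference of 1.14. It entered the test through 1 reading above 7 RPKM, in WS at 240 min, and with no filter the adjusted p was 0.0016 in WS and 0.028 in Col-0. At 15 min it had 5.58, 2.69 and 1.26 RPKM in WS and 3.25, 4.92 and 1.57 RPKM in Col-0, with log2 differences of 1.46 (adjusted p = 0.073) and 1.36 (adjusted p = 0.10) that did not pass the test.

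Of the other 10 genes of the DREB1 and DREB2 groups, 2 passed the filter. *DREB2F* had 5.84 ± 0.62 RPKM in WS at 120 min, against 1.93 ± 0.53 RPKM at 0 min, and 10.4 ± 0.25 RPKM in Col-0 at 120 min, against 1.64 ± 0.77 RPKM at 0 min (SD, n = 3 each), with log2 differences of 1.24 (adjusted p = 0.0018) and 2.15 (adjusted p = 5e-06). *DDF1* had 43.1, 2.78 and 1.59 RPKM in WS at 30 min, was at 0 in all 3 WS libraries at 0 min, and passed the test in WS at 30 min alone (adjusted p = 0.019). *CBF4*, a *CBF*-like gene known from drought, was below the filter and reached 1.80, 0.36 and 0.08 RPKM in WS at 15 min and 0.03, 3.64 and 1.65 RPKM in Col-0, against 0 in all 6 libraries at 0 min.

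Among 23 regulators that act on the *CBF* genes or on DREB2A, 20 were tested, and clock genes were those with the smallest adjusted p. At 240 min 1 regulator was higher and 5 lower in WS, and 2 were higher and 4 lower in Col-0, while of all tested genes 14.5% were higher and 10.1% lower in WS and 17% higher and 13.1% lower in Col-0. *PRR5* was higher in both ecotypes and *PRR7* in Col-0. *CCA1*, *LHY*, *PRR9* and *PIF7* were lower in both ecotypes and *CAMTA1* in WS, so the *PRR* genes moved in both directions. *PRR5*, a clock repressor that also binds *CBF* promoters, had 54.8, 65.4 and 62.4 RPKM in WS at 240 min, against 0.07 ± 0.07 RPKM at 0 min, and 54.3, 76.5 and 5.88 RPKM in Col-0, against 0.05 ± 0.04 RPKM (SD, n = 3). The morning clock gene *CCA1*, which activates the *CBF* genes, had 6.27, 3.65 and 3.91 RPKM in WS at 240 min, against 158, 142 and 95.9 RPKM at 0 min, and 3.56, 9.58 and 37.0 RPKM in Col-0, against 225, 128 and 289 RPKM. Its partner *LHY* fell by 4.12 on the log2 scale in WS (adjusted p = 5e-04) and by 6.09 in Col-0 (adjusted p = 5e-06). Col-0 replicate 3 at 240 min stood apart in these genes, with the lowest *PRR5* and the highest *CCA1* of the 6 libraries, and it also had the lowest *CBF3* and *DREB2A*. The part of the clock in the late rise of *CBF3* was not tested. *ZAT12* was the only regulator called at 15 min, in WS (log2 difference 3.10, adjusted p = 0.035), and at 30 min *ZAT12* and the calmodulin-binding activator *CAMTA3* were higher in both ecotypes, *CAMTA3* by 1.10 in WS (adjusted p = 0.014) and 1.00 in Col-0 (adjusted p = 0.035). *MYB15*, a repressor of the *CBF* genes, was higher at 60 min, by 3.08 in WS (adjusted p = 0.038) and 3.46 in Col-0 (adjusted p = 0.031). The calmodulin-binding *CAMTA1* was lower in WS at 60, 120 and 240 min, most at 120 min (-1.16, adjusted p = 5e-05).

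Except for *COR47* in Col-0, the target genes passed the test later than *CBF1* and *CBF2*. The time of a call is not the time of the first rise. At 15 min each target gene was already above its own 0-min value in every plant. In Col-0 *COR15A* (175, 100 and 102 RPKM) and *RD29A* (61.2, 35.2 and 71.1 RPKM) did not overlap 0 min at that time. The other targets, *COR47* aside, overlapped 0 min at 15 min in both ecotypes, as did *COR15A* and *RD29A* in WS. At 30 min 1 of the 10 members was called higher in WS and 4 in Col-0, where 6.36% of all tested genes were higher in WS and 5.08% in Col-0. *RD29A* was called in both, at 143, 201 and 73.9 RPKM in WS at 30 min against 35.8, 14.4 and 9.17 RPKM at 0 min, and at 118, 251 and 148 RPKM in Col-0 against 19.9, 11.6 and 11.01 RPKM. The libraries at 30 min lay above all those at 0 min, by 2.85 ± 0.64 on the log2 scale in WS (adjusted p = 0.0042) and 3.49 ± 0.64 in Col-0 (adjusted p = 0.001, limma). In Col-0 *COR15A* (2.35, adjusted p = 0.0095), *COR47* (2.74, adjusted p = 0.0036) and *KIN1* (2.98, adjusted p = 0.022) rose as well. The Col-0 count fell to 1 gene without Col-0 replicate 3 and 2 without Col-0 replicate 2, and the WS count was 0 without WS replicate 2 and 2 without WS replicate 1 or its 0-min library alone. With the plant as a replicate block 5 members were called in WS, adding *COR15A* (adjusted p = 0.016), *COR15B* (0.011), *KIN1* (0.023) and *COR47* (0.035), and 6 in Col-0, adding *COR15B* (0.0035) and *GOLS3* (0.028). Without the 4 libraries named above WS had 4, adding *COR15A* (adjusted p = 0.0031), *KIN1* (0.01) and *COR47* (0.039). The earliest call of a target gene was *COR47* in Col-0 at 15 min, at 133, 126 and 121 RPKM against 24.8, 34.5 and 24.7 RPKM at 0 min (2.15 ± 0.58, adjusted p = 0.035), which was lost in 9 of 9 fits without a library or plant. In WS *COR47* had 239, 167 and 109 RPKM at 15 min, against 82.1, 43.4 and 46.8 RPKM at 0 min, which also did not overlap but did not pass the test. With the block *RD29A* was also called in Col-0 at 15 min (adjusted p = 0.044).

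At 60 min all 6 target genes were higher in both ecotypes and none of the 4 factors was, against 16.8% of all tested genes higher in WS and 10.1% in Col-0. *KIN1* had 83.7, 144 and 31.7 RPKM in WS at 60 min, against 1.44, 0.57 and 0.04 RPKM at 0 min, and 19.1, 124 and 63.7 RPKM in Col-0, against 2.12, 0.48 and 1.3 RPKM. Its log2 difference was 5.54 ± 0.81 in WS (adjusted p = 1.8e-05) and 4.63 ± 0.81 in Col-0 (adjusted p = 0.00034), and no 60-min library overlapped those at 0 min. *RD29A* had 300, 955 and 191 RPKM in WS at 60 min and 361, 740 and 275 RPKM in Col-0, with log2 differences of 4.41 (adjusted p = 1.5e-05) and 4.84 (adjusted p = 2e-05). *COR15A* had 1406, 1722 and 754 RPKM in WS at 60 min, against 298, 68.1 and 44.5 RPKM at 0 min, and 945, 956 and 802 RPKM in Col-0, against 74.2, 46.7 and 45.9 RPKM. It was the most abundant of the 10 transcripts, with differences of 3.64 in WS (adjusted p = 3.4e-05) and 4.03 in Col-0 (adjusted p = 4.1e-05). *COR15B* rose by 2.88 (adjusted p = 0.0017) in WS and 4.06 (adjusted p = 0.00016) in Col-0, and *COR47* by 2.68 (adjusted p = 0.001) in WS and 3.17 (adjusted p = 0.00051) in Col-0. *GOLS3* had 12.4, 100 and 11.5 RPKM in WS at 60 min, against 3.85, 1.38 and 2.47 RPKM at 0 min, and 43.0, 110 and 8.64 RPKM in Col-0, against 1.53, 3.01 and 0.95 RPKM. Replicate 2 was far above the others in both ecotypes, and the differences were 2.91 ± 0.80 in WS (adjusted p = 0.0073) and 3.74 ± 0.80 in Col-0 (adjusted p = 0.002). Without WS replicate 2 the WS count was 3, since *COR15B*, *COR47* and *GOLS3* (difference 1.66) no longer passed, while the 6 Col-0 calls held without any library or plant. By voom *GOLS3* in WS (adjusted p = 0.059) and *KIN1* in Col-0 (adjusted p = 0.057) fell short.

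**Figure D4:**
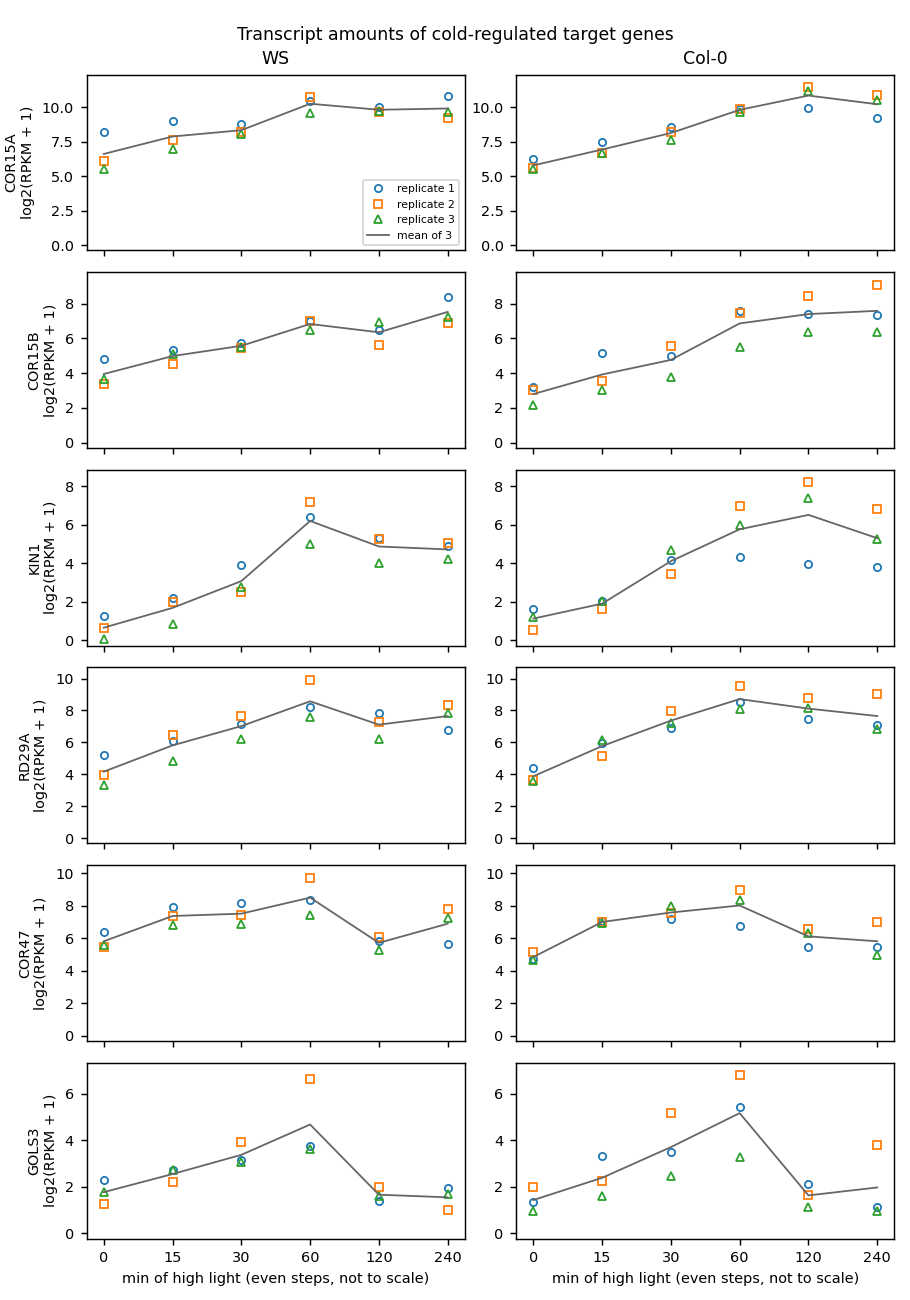
Transcript amounts of the 6 target genes as log2(RPKM + 1) against time in high light (min, even steps), with a row of panels for each gene, WS on the left and Col-0 on the right, a marker for each replicate and lines through the means of 3 libraries. All 6 genes are above their 0-min values at 60 min in all 6 plants, and *COR47* and *GOLS3* drop by 120 min. The other 4 stay above their 0-min values at 120 and 240 min, though *KIN1* and *RD29A* have lower means at 240 min than at 60 min.

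From 60 min on the target genes parted into those that stayed called above 0 min in both ecotypes and those that did not. *COR15A*, *COR15B*, *KIN1* and *RD29A* were called higher at 120 and at 240 min in both ecotypes. At 120 min these and *CBF3* made 5 members called in WS and 4 in Col-0, where 23.2% of all tested genes were higher in WS and 20.3% in Col-0. *COR15A* had 1770, 609 and 826 RPKM in WS at 240 min, and 600, 1928 and 1462 RPKM in Col-0, all above the 0-min libraries given above. Its log2 difference at 240 min was 3.30 in WS (adjusted p = 8.6e-05) and 4.43 in Col-0 (adjusted p = 2e-06). In Col-0 its largest difference was at 120 min, 5.06 ± 0.57 (adjusted p = 3.3e-07), at 966, 2811 and 2309 RPKM, a mean of 2029 ± 954 RPKM against 55.6 ± 16.1 RPKM at 0 min (SD, n = 3 each). In WS its values at 60, 120 and 240 min overlapped one another, while in Col-0 those at 240 min overlapped both other times but those at 120 min lay above those at 60 min, and none of the 3 times overlapped 30 min in either ecotype. *COR15B* had 337, 119 and 151 RPKM in WS at 240 min, against 27.0, 9.26 and 11.9 RPKM at 0 min, and 160, 539 and 80.1 RPKM in Col-0, against 8.37, 7.08 and 3.47 RPKM (3.57, adjusted p = 0.00019, and 4.78, adjusted p = 5.2e-06). *KIN1* was 4.06 higher at 240 min in WS (adjusted p = 0.00045) and 4.18 in Col-0 (adjusted p = 0.00033), and *RD29A* 3.48 in WS (adjusted p = 0.00017) and 3.77 in Col-0 (adjusted p = 6.6e-05). These 8 calls at 240 min held in every fit without a library or plant. Staying above 0 min did not mean staying at the 60-min level. In WS the means at 60, 120 and 240 min were 86.3, 30.8 and 26.3 RPKM for *KIN1* and 482, 151 and 219 RPKM for *RD29A*. In Col-0 they were 68.9, 158 and 54.8 RPKM for *KIN1* and 459, 296 and 256 RPKM for *RD29A*.

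*COR47* and *GOLS3* fell back between 60 and 120 min. *COR47* had 54.6, 67.5 and 36.9 RPKM in WS at 120 min, against 328, 837 and 168 RPKM at 60 min, and 42.9, 92.8 and 78.9 RPKM in Col-0 at 120 min, against 109, 488 and 318 RPKM at 60 min. The groups did not overlap, and the difference was -2.78 in WS (adjusted p = 0.0011), kept in 9 of 9 fits, and -1.90 in Col-0 (adjusted p = 0.025), lost in 6 of 9 fits and with no filter (adjusted p = 0.067). *GOLS3* had 1.61, 3.03 and 2.03 RPKM in WS at 120 min and 3.38, 2.11 and 1.20 RPKM in Col-0, overlapping the 0-min values with 1 Col-0 library above them, with differences from 60 min of -3.02 (adjusted p = 0.0082, lost without WS 60 min replicate 2 or without WS replicate 2, and by voom, 0.061) and -3.54 (adjusted p = 0.0028). Between these times 7.11% of all tested genes were lower in WS and 6.55% in Col-0, and these were the only members called lower in any step. In WS 3 members were lower in this step at an unadjusted p under 0.05 (limma). At 240 min *COR47* overlapped its 0-min values in both ecotypes, at 47.9, 221 and 152 RPKM in WS and 43.1, 125 and 30.8 RPKM in Col-0. Without the 4 libraries *KIN1* was also lower in Col-0 at 240 min than at 120 min (-2.48, adjusted p = 0.0063), and *COR47* was called above 0 min in Col-0 at 120 min (1.59, adjusted p = 0.033). The other steps that passed were *COR15A* (1.92, adjusted p = 0.047, lost in 9 of 9 fits) and *KIN1* (3.12, adjusted p = 0.026, lost in 7 of 9 fits) between 30 and 60 min in WS, where 2.97% of all tested genes were higher. Limma called 0 members between 30 and 60 min in Col-0 (3 higher at an unadjusted p under 0.05, 0 called by voom) and 0 between 120 and 240 min in WS (1 higher at an unadjusted p under 0.05), where voom called *DREB2A* (adjusted p = 0.02) and the replicate block *COR15B* (1.17, adjusted p = 0.037); of all tested genes 0% and 22.2% were called in these steps.

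**Figure D5:**
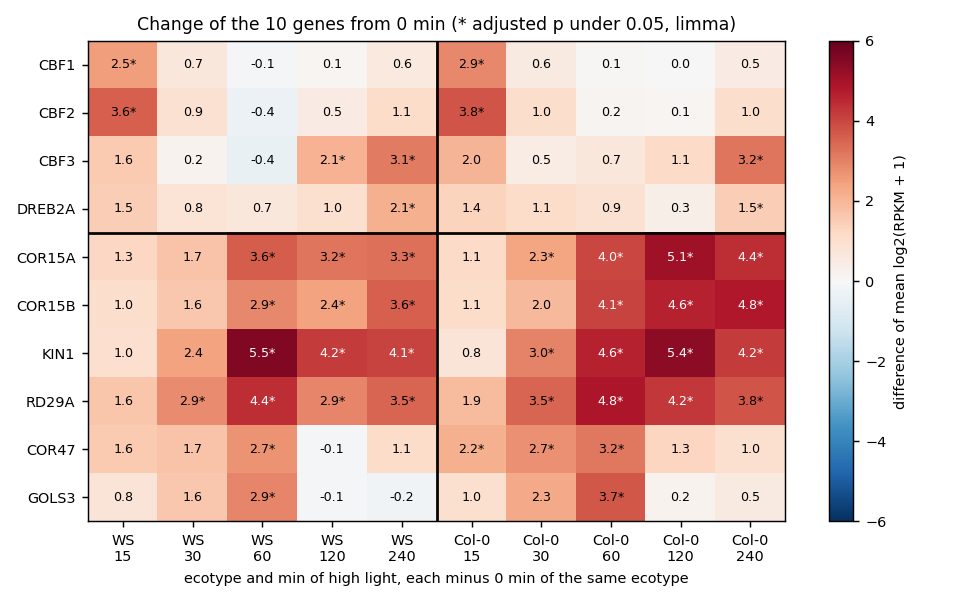
Heat map of the difference from 0 min in mean log2(RPKM + 1), printed in each cell, for the 10 genes (rows) at the 5 later times in WS (left) and Col-0 (right), where an asterisk marks an adjusted p under 0.05 (limma). The factor genes *CBF1* and *CBF2* are marked at 15 min alone, the 6 target genes are all marked at 60 min, and *CBF3* and *DREB2A* are marked at 240 min in both ecotypes.

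No member was called lower than at 0 min at any time in either ecotype, and none was lower at an unadjusted p under 0.05 either, in limma or by voom. Of all tested genes, 0.0796%, 2.38%, 10%, 17.3% and 10.1% were lower than at 0 min in WS at the successive times and 0.246%, 1.77%, 6.44%, 15.7% and 13.1% in Col-0. The time of the highest value among the 6 plants was 60 min in 6 plants for *GOLS3*, in 5 for *COR47*, and in 4 for *KIN1* and *RD29A*, while *COR15A* was highest at 120 min in 4 and *COR15B* at 240 min in 4. The median log2 difference of the 10 genes from 15 to 240 min was 1.5, 1.61, 2.78, 1.54 and 2.62 in WS and 1.62, 2.12, 3.45, 1.20 and 2.33 in Col-0, while that of all tested genes stayed between -0.01 and 0.10.

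Of a further list of 20 cold-regulated and DREB target genes 19 were tested, and none was called lower at any time. In WS 3, 6, 11, 9 and 8 of them were higher at the 5 successive times, and in Col-0 3, 6, 10, 11 and 10. The shares of all tested genes that were higher at these times were 2.64%, 6.36%, 16.8%, 23.2% and 14.5% in WS and 2.85%, 5.08%, 10.1%, 20.3% and 17% in Col-0. The median log2 difference of the 19 was 2.32 in WS and 1.82 in Col-0 at 60 min. *ERD7*, a stress-inducible gene, had 205, 364 and 95.1 RPKM in WS at 60 min, against 5.62, 5.49 and 7.15 RPKM at 0 min, and rose by 4.78 in both ecotypes (adjusted p = 2.2e-06 in WS and 1.5e-05 in Col-0). It was already higher at 15 min, by 3.78 in WS (adjusted p = 0.00026) and 4.33 in Col-0 (adjusted p = 7.7e-05), as was the dehydrin gene *ERD10* beside *COR47*, by 2.64 in WS (adjusted p = 0.0014) and 2.70 in Col-0 (adjusted p = 0.0011). *KIN2*, the neighbour and near copy of *KIN1*, had 2404 ± 738 RPKM in WS at 60 min, against 184 ± 126 RPKM at 0 min, and 1109 ± 156 RPKM in Col-0, against 181 ± 64.1 RPKM (SD, n = 3 each). *RCI2A*, a small membrane protein gene, was 4.09 higher in WS at 240 min (adjusted p = 3.5e-07) and 2.68 in Col-0 (adjusted p = 0.00011). *COR27* and *COR28*, cold-regulated genes under evening control, were seen only late, *COR28* at 7.52, 16.8 and 22.4 RPKM in WS at 240 min against 0 in all 3 libraries at 0 min (adjusted p = 2.1e-07), and at 5.11, 6.91 and 0.11 RPKM in Col-0 against 0.02, 0.00 and 0.07 RPKM (adjusted p = 0.0016). *COR27* had 9.15, 20.3 and 27.8 RPKM in WS at 240 min and 14.4, 9.83 and 0.00 RPKM in Col-0, so Col-0 replicate 3, with the lowest *CBF3*, was also the lowest of the 6 libraries for both genes. Both genes passed the filter of 7 RPKM with readings at 240 min, *COR28* with WS readings while its Col-0 readings at that time stayed below. Their tests at 240 min are therefore not independent of the filter, and no p without the filter is given for them.

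For these 10 genes no difference between the ecotypes passed the test. At 0 min none of the 10 genes differed between WS and Col-0 by limma, none at an unadjusted p under 0.05 and none by voom, while 6.59% of all tested genes did. The largest difference at 0 min was that of *COR15B*, 1.15 higher in WS with a 95% interval of -0.20 to 2.50. The response of WS minus that of Col-0 was past the threshold for 0 of the 10 genes at every time by limma and by voom, where 0.0145%, 0.00724%, 0.232%, 0.13% and 0.0941% of all tested genes were called at the successive times. At an unadjusted p under 0.05 it was lower for 2 members at 120 min, *COR15A* (-1.86, 95% interval -3.50 to -0.22, adjusted p = 0.65) and *COR15B* (-2.20, interval -4.11 to -0.29, adjusted p = 0.63), and for none at the other times. The intervals are wide, *CBF1* at 15 min for instance spanning -1.63 to 0.87 and *CBF2* -2.01 to 1.64 on the log2 scale, so differences of this size between the ecotypes were not detectable with 3 libraries each.

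Over the 12 group means of log2(RPKM + 1), *CBF1* and *CBF2* had a Pearson r of 0.99 with each other, *COR15A* and *COR15B* of 0.98, *COR15A* and *KIN1* of 0.95, *COR47* and *GOLS3* of 0.86, and *CBF1* and *COR15A* of -0.34. Outside the members, the genes most like *CBF1* were AT1G50750 (0.992), *RLP31* (0.959) and *RPK2* (0.918), and AT1G50750 (0.974) and *RLP31* (0.957) were also the closest to *CBF2*, followed by AT1G77220 (0.933). *CBF3* was closest to AT5G65495 (0.931), *RS40* (0.927) and AT5G46710 (0.926). *DREB2A* was closest to *ACA.l* (0.902), AT4G33985 (0.9) and the evening clock gene *TOC1* (0.886), and *COR15A* to *VSP2* (0.977), *BAM5* (0.975) and AT2G43535 (0.973). These correlations describe 12 means of the same 36 libraries, chosen among all tested genes, and carry no test.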

How the data were processed

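RNA of 36 leaf libraries (12 groups of 3) was sequenced. Per the labels and the study's methods, reads were trimmed (Trimmomatic 0.32, with quality control in FastQC), mapped to the TAIR10 genome (STAR 2.3.0e) and assigned to genes (featureCounts), and the authors deposited RPKM values for each library. For the strand setting and the annotation release, nothing was given in the sources used here. The table had 0 sample columns that were left unused. RPKM rises in steps of 1 read, so reads were recovered with TAIR10.1 exon lengths for 37051 of 37336 genes. The read total of each library was fitted so that values of short genes with few reads came closest to whole reads. Of 66 to 580 such values in a library, 99.79% to 100% lay within 0.1 read of a whole number. As the fit used these same short genes, the share is no independent check, and it covers none of the members, which are longer.

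log2(RPKM + 1) was fitted with limma 3.58.1 in R 4.3.3 (lmFit and eBayes with trend, 24 residual degrees of freedom). A gene entered if any of the 36 readings exceeded 7 RPKM, which left 13817. Each time was compared with 0 min and with the time before it, and the ecotypes were compared in their responses and at 0 min, with 2-sided tests and Benjamini-Hochberg adjustment per comparison at 0.05. The fit was tested on simulated data. Motif searches and exact Poisson intervals used Python 3.11.15 and SciPy 1.17.1.

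The 10 members and all gene lists were chosen with earlier results of these data known. Named are all members, up to 4 genes of each other list by smallest adjusted p, the 3 genes most like each of 5 members, and genes whose values stand beside a member. *ZAT12*, *DDF1*, *CAMTA3*, *MYB15*, *PRR7*, *PRR9*, *PIF7*, *CBF4*, *KIN2* and *ERD10* are named by the last clause or after their values were seen.

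Replicate numbers were taken to pair libraries by plant on the basis of the methods, although the sources do not say this outright. Deviations of same-numbered libraries from their group means correlated by -0.001 to 0.202 on average in the 6 plants. The main fit treats all libraries as independent, so its p-values measure the spread between them. Alternatives were another pseudocount (0.1), another filter (1 RPKM in 3 libraries) or none, scaling to the same sum (TPM), a replicate block, voom on recovered reads, and leaving out each library or plant. The fit without 4 libraries was chosen after seeing the data.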

Additional observations from a re-analysis of the deposited data

How the results depend on the processing

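In Col-0 at 15 min, 3 members were called, 5 with a pseudocount of 0.1 and 5 with the replicate block. In WS at 15 min 2 were called and 1 by voom. In WS at 30 min 1 was called, 2 with a pseudocount of 0.1, 5 with the replicate block and 4 without the 4 libraries. The block changed no call against 0 min at 60, 120 or 240 min. Leaving out 1 library or plant gave 1 to 3, 0 to 2, 3 to 6, 4 to 6 and 6 to 7 members in WS over the successive times, and 2 to 4, 1 to 4, 6 to 6, 4 to 5 and 5 to 6 in Col-0. The other values recomputed were single calls made in the main fit and counts in steps. Of these, 837 kept their side of the threshold or a count within 1.5 times, 87 calls were lost and 0 calls turned round. Another 52 were counts that moved by over 1.5 times or to or from 0. Calls gained by an alternative are not part of this tally. With no filter, the Col-0 calls of *COR47* at 15 min (adjusted p = 0.099) and *KIN1* at 30 min (0.068) were lost, and voom lost *KIN1* too (0.31). The cause of these changes was not tested. When libraries were scaled to the same sum, the median over all genes (log2 difference from 0 min) became 0.20 in WS at 120 min, 0.28 in WS at 240 min and 0.21 in Col-0 at 240 min, with no change in the count of members against 0 min. Over all genes, the fit without the 4 libraries called 1524 genes in Col-0 at 30 min (946 with all libraries) and 3566 at 60 min (2281), and in steps 144 between 15 and 30 min (2), 91 between 30 and 60 min (0) and 4740 between 120 and 240 min (1720) in Col-0, and 34 (15), 1628 between 30 and 60 min (678) and 5329 between 120 and 240 min (3069) in WS. Voom called 181 in WS at 15 min (376), 659 at 30 min (1208) and 611 in Col-0 at 30 min. At 0 min the ecotypes differed in 911 genes, 1417 and 1483 with the weaker filter and none, and 604 by voom, and could not be fitted with a block. Leaving out 1 library or plant gave, over all genes against 0 min, 96 to 410, 180 to 1429, 2266 to 3281, 3153 to 6602 and 1718 to 3563 calls in WS over the successive times and 118 to 472, 201 to 1045, 508 to 2866, 2695 to 5784 and 2244 to 3783 in Col-0, so the shares of all genes printed above move with single libraries. In steps it gave 20 to 4120 between 120 and 240 min in Col-0 and 243 to 4711 in WS, 696 to 3305 between 60 and 120 min in Col-0 and 1167 to 2552 in WS, and 13 to 549 between 30 and 60 min in WS. For the ecotypes at 0 min it gave 508 to 1053. Depth limits *CBF1* most, which had 8 recovered reads in WS and 2 in Col-0 at 0 min.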
